A study of Mus musculus with 4 samples.

Results

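The core genes of the circadian clock were followed in the livers of mice given an antisense oligonucleotide (ASO, a synthetic strand that pairs with a transcript and leads to its breakdown) against the lipid droplet protein perilipin 2 (Plin2) and of mice given a scrambled control ASO. The 10 genes, Arntl, Clock, Npas2, Per1, Per2, Per3, Cry1, Cry2, Nr1d1 and Dbp, were taken by name, through every non-control probe whose gene name, or whose transcript's current symbol, was one of them. They had 18 of the 41174 probes of the array, and all 10 were among the 18044 genes tested. All animals were male C57BL/6 mice on a high-fat diet, and both ASOs were injected into the abdomen at 25 mg/kg, 2 times a week for 4 weeks. Each of 4 arrays carried 1 control liver in the red dye (Cy5; mice 1, 2, 4 and 5 on arrays 1 to 4) and, in the green dye (Cy3), 1 liver labelled Plin2-ASO (mice 6, 7, 9 and 10), with no dye exchange. The age of the mice, the light schedule and the time of day at which livers were taken are not given in the sources used here.

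The mammalian clock is a feedback loop of transcription that runs in nearly every cell, and in the liver it is set mainly by feeding time. The protein of Arntl (BMAL1) pairs with CLOCK or its relative NPAS2, binds E-box sequences and switches on the Per, Cry, Nr1d1 and Dbp genes. PER and CRY proteins then return to the nucleus and block that pair, while the protein of Nr1d1 (REV-ERB alpha) binds ROR elements and represses Arntl, Npas2, Cry1 and Nfil3. DBP acts at D-box sequences and carries the rhythm to genes of liver metabolism. Because transcripts of the Nr1d1 and Dbp kind peak when those of Arntl and Npas2 are low, a single sampling time gives levels at 1 phase and no rhythm.

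The start regions of 4 members are shown because they carry matches to these motifs and because Cry1 and Per3 had the highest mean ratios among the repressor genes while Nr1d1 had the lowest of all. They are the 250 bases before the RefSeq start in build GRCm38.p6, 5′ to 3′ on the gene's strand, with motif matches in capitals. 9 of the 10 members matched an entry of the promoter table; Per2 did not.
Cry1, chr10:85185055-85185304, minus strand: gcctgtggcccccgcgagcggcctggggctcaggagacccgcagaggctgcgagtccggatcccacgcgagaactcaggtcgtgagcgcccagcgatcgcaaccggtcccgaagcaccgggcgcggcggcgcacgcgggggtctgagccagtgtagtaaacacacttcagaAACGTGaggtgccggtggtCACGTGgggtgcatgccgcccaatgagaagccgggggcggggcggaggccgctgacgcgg
Per3, chr4:151044666-151044915, minus strand: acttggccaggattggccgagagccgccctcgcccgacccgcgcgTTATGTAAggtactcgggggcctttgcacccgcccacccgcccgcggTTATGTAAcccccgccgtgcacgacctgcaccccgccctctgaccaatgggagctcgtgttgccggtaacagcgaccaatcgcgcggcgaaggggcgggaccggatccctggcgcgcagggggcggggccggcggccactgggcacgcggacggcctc
Per1, chr11:69098699-69098948, plus strand: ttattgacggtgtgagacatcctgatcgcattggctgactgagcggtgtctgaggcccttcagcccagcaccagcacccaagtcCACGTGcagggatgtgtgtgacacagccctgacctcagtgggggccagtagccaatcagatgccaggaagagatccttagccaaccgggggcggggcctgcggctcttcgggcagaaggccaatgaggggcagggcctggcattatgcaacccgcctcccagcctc
Nr1d1, chr11:98775378-98775627, minus strand: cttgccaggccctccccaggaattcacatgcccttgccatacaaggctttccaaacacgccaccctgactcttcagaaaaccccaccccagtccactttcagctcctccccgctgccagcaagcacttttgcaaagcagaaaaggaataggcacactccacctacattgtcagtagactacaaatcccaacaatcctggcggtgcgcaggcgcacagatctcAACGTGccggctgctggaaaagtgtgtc

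The motifs searched, on both strands, were the E-box CACGTG, its variant CACGTT (printed as AACGTG where it lies on the other strand), the D-box TTATGTAA with the forms TTACGTAA, TTATATAA and TTACATAA, and the ROR element. Cry1 held an E-box 60 bases and the variant 79 bases before the start, and Per1 held an E-box 166 bases before the first of its starts in the table. The variant was found in Nr1d1 at 28 bases and in Cry2 at 166 bases, and Per3 held 2 D-boxes, at 205 and 158 bases. Of all 32851 start regions of this length, 6.02% held the E-box, 3.85% the variant, 1.43% a D-box and 0.332% the ROR element. These are letter matches and no measured binding, and none of the 9 members with an entry had a ROR element in its window.

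Among the 10 clock genes the differences between the groups lay between 1.05-fold and 1.57-fold. The log2 ratios of the scanning software gave larger means for Npas2 and Cry1, 0.99 and 1.11 against 0.56 and 0.61 (adjusted p = 0.0252 and 0.0255 by limma). Npas2 alone passed the test and rose 1.47-fold in the livers labelled Plin2-ASO, by limma with Benjamini-Hochberg adjustment over all genes at 0.05; 9 members did not pass and none fell. Over all genes tested 9.74% passed (3.67% higher and 6.07% lower), so 1 of 10 members was near the background. An unadjusted p under 0.05 was reached by 5 members, 4 higher (Npas2, Cry1, Per3 and Per2) and 1 lower (Nr1d1), against 26.9% of all genes. The log2 ratio had the same sign on all 4 arrays for 6 members, against 34.3% of the 16076 genes measured on every array. Of these 6, Arntl, Npas2, Per2, Per3 and Cry1 were higher in the livers labelled Plin2-ASO and Nr1d1 was lower. The median log2 ratio of the members was 0.20, against -0.03 over all genes, and the median size of the ratio was 0.35 against 0.23.

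**Figure D1:**
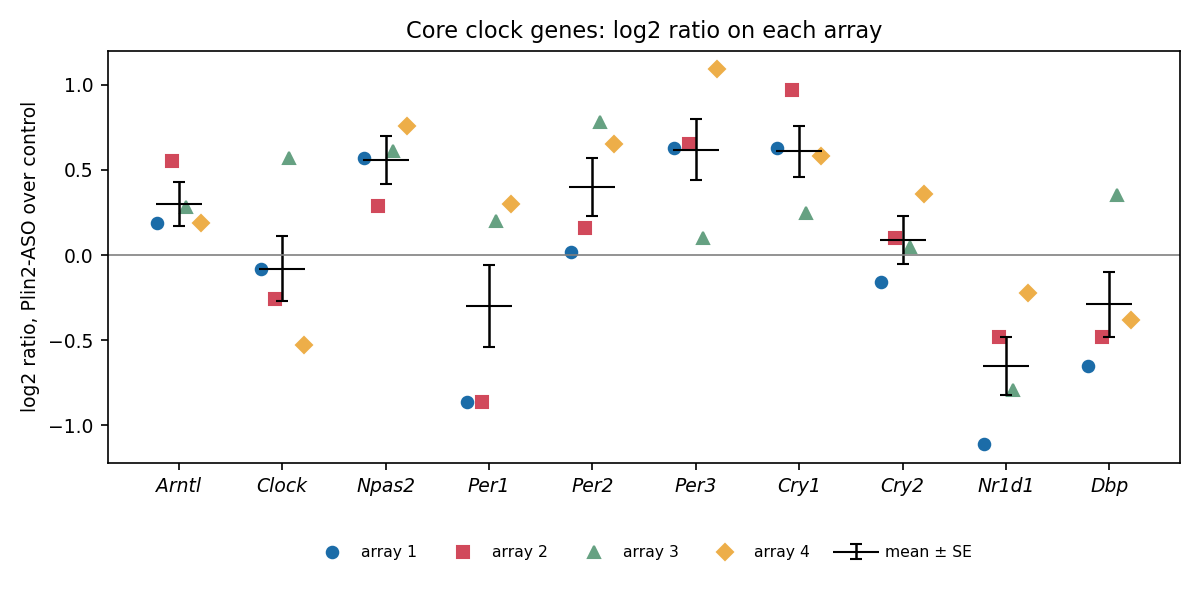
Log2 ratio (Plin2-ASO over control, vertical axis) of the 10 clock genes on each of the 4 arrays; symbols are arrays, the long bar is the mean and the error bar its standard error (SE) from the limma fit. Npas2, Cry1 and Per3 lie above 0 and Nr1d1 below 0 on every array, while Per1 lies at -0.86 on arrays 1 and 2 and at 0.20 and 0.30 on arrays 3 and 4.

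Ratios are Cy3 over Cy5, so values above 0 are higher in the livers labelled Plin2-ASO. Plin2 itself, the target, was not lower there: its log2 ratios were 0.24, 0.15, 0.83 and 0.36 on arrays 1 to 4, with a mean of 0.40 ± 0.15 (SE, n = 4; adjusted p = 0.156 by limma). Directions here are those of the labelled dyes, and with labels or dyes exchanged every direction given here would be mirrored. A dye effect of a single probe and the treatment cannot be told apart. The median spot signal was 244 to 499 in green and 256 to 637 in red, against local backgrounds of 55 to 63.5. Array 3 stood apart, with a mean correlation with the other arrays of 0.33 across genes (0.51 to 0.65 for the others), 7.61% of spots marked as outliers (1.5% to 3.83%) and a correlation of log2 ratio with probe GC content of -0.30 (0.04, 0.07 and 0.25 on arrays 1, 2 and 4). Each mouse is 1 sample, the error of a mean ratio comes from 4 pairs of mice and includes array noise, and precision is limited by that number.

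Of the activators, 1 passed the test. Npas2, the partner that can take the place of CLOCK, read log2 signals of 7.42, 8.33, 7.45 and 7.58 in the control livers of arrays 1 to 4 and of 7.99, 8.62, 8.06 and 8.34 in the livers labelled Plin2-ASO. On each array the liver labelled Plin2-ASO was higher, but control mouse 2 lay among the treated livers, so the groups overlapped. The log2 ratios were 0.57, 0.29, 0.61 and 0.76, with a mean of 0.56 ± 0.14 (SE, n = 4; 95% interval 0.24 to 0.88; adjusted p = 0.0464 by limma). The call was narrow: the adjusted p was 0.255, 0.148 and 0.162 without array 1, 2 or 4, and 0.160 with the channels taken as independent samples. Its only probe lies at positions 39603477 to 39603536 of chromosome 1 in mouse build mm7.

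Arntl, whose product BMAL1 the loop cannot run without, read 8.75, 9.02, 9.13 and 8.49 in the control livers and 8.95, 9.57, 9.41 and 8.68 in the livers labelled Plin2-ASO. It was higher in the latter on every array, by 0.19, 0.55, 0.28 and 0.19 on the log2 scale, while the livers of 1 group differed among themselves by 0.64 (controls) and 0.89. The mean log2 ratio was 0.30 ± 0.13 (SE, n = 4; 95% interval -0.01 to 0.62; adjusted p = 0.192 by limma). Clock, the other partner of BMAL1, had control levels of 10.07, 10.49, 10.21 and 10.65 and levels of 9.99, 10.23, 10.79 and 10.12 in the livers labelled Plin2-ASO. Array 3 was the only array with a higher level there, and the log2 ratio averaged -0.08 ± 0.19 (SE, n = 4; 95% interval -0.53 to 0.38; adjusted p = 0.840 by limma). Its 2 other kept probes averaged 0.12 and 0.05.

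**Figure D2:**
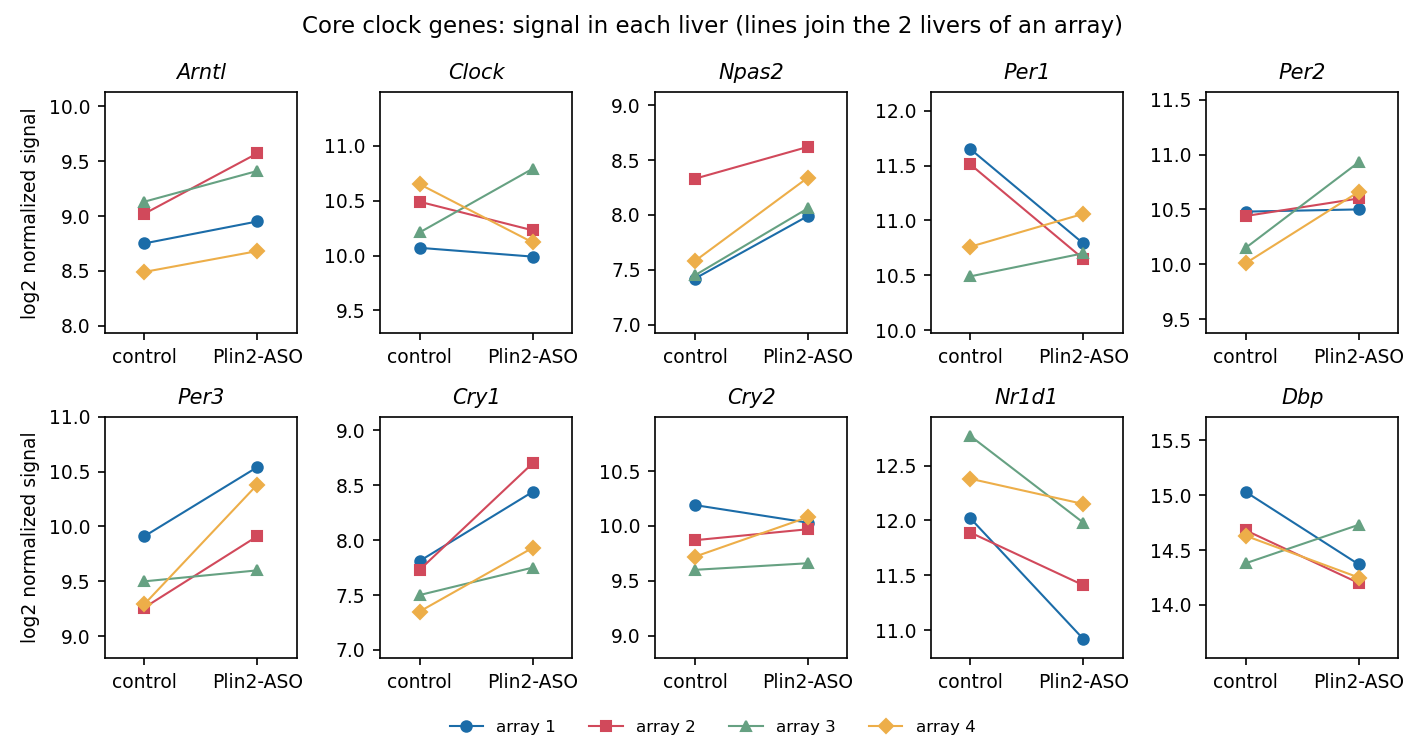
Normalized log2 signal (vertical axis, the same span of 2.2 in every panel) of each clock gene in the 4 control livers and the 4 livers labelled Plin2-ASO; each line joins the 2 livers of 1 array. Lines of Arntl, Npas2, Per2, Per3 and Cry1 all rise and those of Nr1d1 all fall, and the groups are apart for Per2 alone.

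Of the period genes, Per3 had the largest difference. Per3, thought to modulate the loop more than to drive it, read 9.91, 9.26, 9.5 and 9.29 in the control livers and 10.54, 9.91, 9.60 and 10.38 in the livers labelled Plin2-ASO. Array 3 showed nearly no difference (log2 ratio 0.10), against 0.63, 0.65 and 1.09 on arrays 1, 2 and 4. The mean was 0.62 ± 0.18 (SE, n = 4, 1.53-fold, adjusted p = 0.0757 by limma). Without array 3 it was 0.79 with an adjusted p of 0.00449 by limma, a setting in which 33.3% of all genes passed. Without array 1, 2 or 4 the adjusted p of Per3 was 0.299, 0.279 and 0.233.

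Per2, a repressor that the clock needs for its rhythm, was the only member whose groups did not overlap, against 16.6% of genes measured on every array (5.9% higher and 10.7% lower). The control livers read 10.48, 10.44, 10.15 and 10.01 and the livers labelled Plin2-ASO 10.50, 10.60, 10.93 and 10.66. The gap came from arrays 3 and 4, with log2 ratios of 0.78 and 0.65 against 0.02 and 0.16 on arrays 1 and 2, and the mean was 0.40 ± 0.17 (SE, n = 4; adjusted p = 0.181 by limma). A second probe of Per2 read 0.40, 0.47, -0.55 and 0.82, and by that probe the groups overlapped.

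Per1, a period gene that hormones and light induce quickly, divided the arrays in pairs. It was high in control mice 1 and 2 (11.65 and 11.51) and lower in control mice 4 and 5 (10.49 and 10.76), a range of 1.16, while the livers labelled Plin2-ASO read 10.79, 10.65, 10.70 and 11.06, a range of 0.41. The log2 ratios were accordingly -0.86, -0.86, 0.20 and 0.30, and the mean of -0.30 ± 0.24 (SE, n = 4; adjusted p = 0.463 by limma) describes neither pair.

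Cry1, the stronger repressor of the cryptochromes, read 7.81, 7.73, 7.5 and 7.35 in the control livers and 8.44, 8.70, 7.75 and 7.93 in the livers labelled Plin2-ASO. Every array was higher in the latter, by 0.63, 0.97, 0.25 and 0.58, and only the lowest treated liver fell within the controls. The mean was 0.61 ± 0.15 (SE, n = 4; 1.52-fold; 95% interval 0.25 to 0.97), with an adjusted p of 0.0513 by limma, just outside the threshold. The signal was low: the probe was well above background in 3 of the 4 control livers. A dimmer probe, well above background in 2 livers labelled Plin2-ASO and in no control liver, was left out of the test and read 0.47, 0.89, 0.57 and 0.15. Cry2, the other cryptochrome, read 10.19, 9.87, 9.60 and 9.72 in control livers and 10.03, 9.97, 9.66 and 10.08 in livers labelled Plin2-ASO (mean log2 ratio 0.09 ± 0.14, SE, n = 4; 95% interval -0.24 to 0.41; adjusted p = 0.733 by limma). Whether Cry1 and Cry2 differed from each other was not tested.

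Nr1d1, the repressor of the second loop, had the lowest mean ratio of the members. The control livers read 12.02, 11.89, 12.77 and 12.38 and the livers labelled Plin2-ASO 10.92, 11.41, 11.98 and 12.15. All arrays were lower, by log2 ratios of -1.11, -0.48, -0.79 and -0.22, and the groups overlapped because array 3 and array 4 were higher in both channels than arrays 1 and 2. The mean was -0.65 ± 0.17 (SE, n = 4; 1.57-fold lower; 95% interval -1.06 to -0.25), with an adjusted p of 0.0586 by limma. Nr1d1 was measured by 3 probes at different positions of chromosome 11, not all assigned to the same transcript record. They averaged -0.65, -0.59 and -0.51, and each of them was lower on every array. A correction of the log2 ratios for probe GC content on each array was an alternative chosen after seeing the data. With it Nr1d1 and Cry1 passed, with mean log2 ratios of -0.63 and 0.60 (adjusted p = 0.0404 and 0.0405 by limma). Over all genes 2225 passed with that correction, against 1758 in the main analysis.

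The probe used for Cry1 and 2 of the 3 probes of Nr1d1 are shown, since both genes lay just outside the threshold and the Nr1d1 probes lie in different places. Positions are those of the array's files in build mm7, both genes on the minus strand, and the second Nr1d1 probe spans more of the genome than its own length, so its bases are not contiguous there.
Nr1d1, chr11:98881057-98881116: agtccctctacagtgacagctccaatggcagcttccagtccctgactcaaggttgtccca
Nr1d1, chr11:98878251-98878753: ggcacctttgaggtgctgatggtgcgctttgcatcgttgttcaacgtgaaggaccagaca
Cry1, chr10:84685114-84685173: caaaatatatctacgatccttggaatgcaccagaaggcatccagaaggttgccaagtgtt

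Dbp, the output factor, read 15.03, 14.68, 14.38 and 14.63 in the control livers and 14.37, 14.20, 14.73 and 14.25 in the livers labelled Plin2-ASO. Array 3 went against the others: the log2 ratios were -0.65, -0.48, 0.35 and -0.38, with a mean of -0.29 ± 0.19 (SE, n = 4; adjusted p = 0.361 by limma). Without array 3 the mean was -0.51 and the adjusted p 0.0155 by limma, a setting in which 33.3% of all genes passed. Without array 1, 2 or 4 the adjusted p of Dbp was 0.792, 0.707 and 0.586.

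Of the 4 arrays left out in turn, array 3 moved the count of members most. Npas2, Per3 and Cry1 then rose and Nr1d1 and Dbp fell by limma, 5 of 10 members, but 33.3% of all genes passed in the same 3 arrays. Without array 1, 2 or 4 no member passed by limma, and only 2.15%, 2.11% and 6.68% of all genes passed. Probes of 1 gene differed on array 3 in some members. On array 3 the Cry2 probe of 55% GC read -0.66 and that of 45% read 0.05, and the Per2 probe of 55% GC read -0.55 and that of 38.3% read 0.78. The Clock probes of 35% and 36.7% GC that passed the background filter read 0.34 to 0.61 there. The Dbp probe, at 55% GC, read 0.35 on the same array. After the correction for probe GC, the Per2 probes still read 0.62 and -0.23 on array 3 and the Cry2 probes 0.10 and -0.35, while the Dbp probe read 0.66. The Nr1d1 probe used, at 55% GC, read -0.79 on array 3 and -0.48 after the correction, and the other Nr1d1 probes -0.66 and -0.64 before and -0.39 and -0.45 after. The part of array 3 in each mean beyond these values was not tested.

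**Figure D3:**
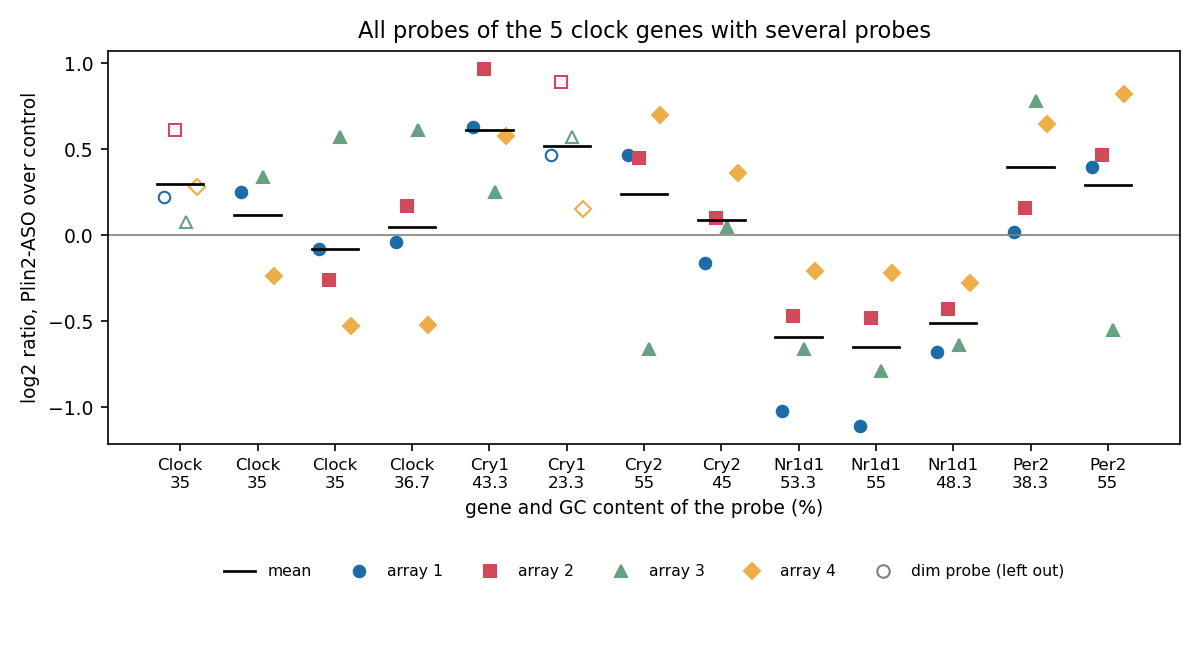
Log2 ratio (Plin2-ASO over control, vertical axis) on each array for all 13 probes of the 5 clock genes that have several, with the GC content of each probe under the gene; horizontal bars are means and open symbols are the 2 probes that were not well above background on 3 arrays of either channel. The 3 probes of Nr1d1 lie below 0 on every array, whereas on array 3 (triangles) the probes of Per2 and of Cry2 lie apart.

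The other factors of the loop were taken from a list of 12 genes that excludes the members. Of the 10 tested, 2 rose and none fell by limma, against 3.67% and 6.07% of all genes, with a median log2 ratio of 0.33. At an unadjusted p under 0.05, 4 were higher and 1 lower, against 26.9% of all genes in either direction. Rorb and Arntl2 were not past the background filter. Nfil3, a repressor that competes with DBP at D-boxes, had control levels of 10.05, 10.30, 10.15 and 10.27 and levels of 10.99, 11.01, 10.86 and 11.14 in the livers labelled Plin2-ASO. The groups did not overlap, the log2 ratios were 0.93, 0.71, 0.71 and 0.87, and the mean was 0.81 ± 0.13 (SE, n = 4; 1.75-fold; adjusted p = 0.0115 by limma); a second probe averaged 1.09. The call ended without array 1 (adjusted p = 0.113) or array 2 (0.0787).

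Bhlhe40, a repressor that competes for E-boxes, read 0.38, 0.80, 1.37 and 0.33 (adjusted p = 0.0640 by limma). Timeless, which acts mainly at the replication fork in mammals, read -0.34, -0.44, -0.46 and -0.40 (adjusted p = 0.0811). Nr1d2 (REV-ERB beta), the close relative of Nr1d1, read 0.07, -0.10, 0.74 and -0.28, with a mean of 0.11 ± 0.19 (SE, n = 4; adjusted p = 0.756 by limma). The probes of the D-box activator Tef disagreed: the brightest averaged 0.00 ± 0.13 (SE, n = 4) and the 3 others 0.98, 0.69 and 0.55, and the mean of all its kept probes was 0.49 (adjusted p = 0.145 by limma).

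**Figure D4:**
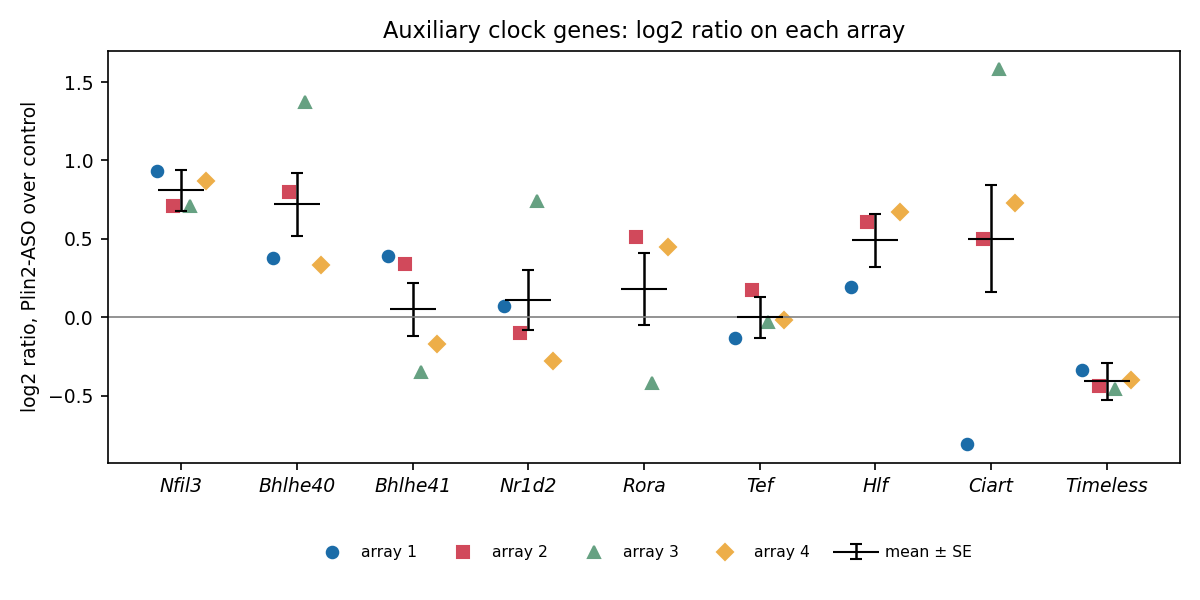
Log2 ratio (Plin2-ASO over control, vertical axis) of 9 of the 10 tested auxiliary clock genes on each array; symbols are arrays, the long bar is the mean and the error bar its SE from the limma fit. Nfil3 lies between 0.71 and 0.93 on the 4 arrays, while Ciart spreads from -0.81 to 1.58; Rora and Hlf were measured on 3 arrays.

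A pair of lists drew on both sets of clock genes. The 5 genes listed as repressed by REV-ERB (Arntl, Clock, Npas2, Cry1 and Nfil3) had medians of 0.57, 0.55, 0.57 and 0.58 on arrays 1 to 4; 2 rose and none fell (at an unadjusted p under 0.05, 3 higher and 0 lower), and 4 of the 5 are members. The 11 genes listed as driven by E-boxes (Per1, Per2, Per3, Nr1d1, Nr1d2, Dbp, Tef, Hlf, Ciart, Bhlhe41 and Usp2) had medians of 0.02, 0.17, 0.18 and 0.30, with 7 means above and 4 below 0, and none passed by limma (at an unadjusted p under 0.05, 4 higher and 1 lower). The medians of all genes were -0.04, -0.04, 0.01 and -0.02. Over all genes 3.67% rose and 6.07% fell by limma, and 26.9% had an unadjusted p under 0.05 in either direction. Both lists were chosen with earlier results of these data known. Tef counts as below 0 by its brightest probe (mean 0.00), while its 3 other probes averaged 0.98, 0.69 and 0.55. Cry1 is known to be driven by E-boxes as well and was placed in the first list alone. Cry2 and Bhlhe40 (mean log2 ratio 0.72) were in neither, so the lists are no full sort by element. The difference between the 2 lists was not tested.

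Of 16 tested enzymes that modify and remove clock proteins, 1 rose and none fell by limma, against 3.67% and 6.07% of all genes. At an unadjusted p under 0.05, 3 were higher and 2 lower, against 26.9% of all genes in either direction. The median log2 ratio was 0.00 (8 above and 8 below 0) and the median size 0.33, against 0.23 over all genes. Btrc, a ubiquitin ligase subunit that marks PER proteins for removal, rose 1.58-fold (0.45, 0.98, 0.64 and 0.57; adjusted p = 0.0316 by limma), but not without array 1, 2 or 4 (adjusted p = 0.144, 0.202 and 0.0745). Csnk1d, the kinase that phosphorylates PER, averaged -0.49 by its brightest probe (adjusted p = 0.0665) and -0.26, 0.14 and 0.42 by its other probes. The ligase scaffold Cul1 averaged 0.41 and the deubiquitinase Usp2 0.78 (adjusted p = 0.0872 and 0.110); a second probe of Usp2 averaged 1.29.

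Of 22 liver genes known to follow the clock, 3 rose and 3 fell by limma, against 3.67% and 6.07% of all genes. At an unadjusted p under 0.05, 8 were higher and 3 lower, against 26.9% of all genes in either direction. The median log2 ratio was 0.20. The fatty acid elongase Elovl3 rose 13.5-fold (log2 ratios 4.3, 4.43, 4.15 and 2.14; adjusted p = 0.00280 by limma) and the male-biased steroid dehydrogenase Hsd3b5 34.1-fold (6.27, 5.33, 6.64 and 2.13; adjusted p = 0.00661). The tubulin Tubb2a, the cytochrome Cyp2a5 and the transferrin receptor Tfrc were 2.43-fold, 2.29-fold and 1.80-fold lower. Elovl3, Hsd3b5 and Tubb2a passed without any single array; Cyp2a5 and Tfrc did not pass without array 1 (adjusted p = 0.0881 and 0.176) or array 2 (0.110 and 0.155), nor Tfrc without array 4 (0.0525). The 5 named sizes exceed those of every clock member.

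The genes whose 4 log2 ratios lay nearest to those of a member were sought among 12558 named genes measured on every array, by the root mean square difference. Nearest to Nr1d1 were Tmem181a and Aldoa (0.09 each), Cables1 (0.10), Psd4 (0.11) and Dctd (0.12). Nearest to Per3, the member with the highest mean, were Ppara, Arfgef3 and Ccdc157 (0.13 each), then Hrc and Tac1 (0.14). Ppara, the fatty acid sensing receptor, read 0.39, 0.63, 0.17 and 1.01 (adjusted p = 0.0858 by limma). A match over 4 values is a description and was chosen as the closest of many.

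The samples are bulk liver, in which fewer cells of a type and less RNA per cell cannot be told apart. Each summed signal below leaves out markers missing on that array, so the arrays of a list can cover unlike genes. Missing were Ahsg, Ttr and Clec4f on array 1, Marco, Col1a2, Krt7 and Cd3d on array 3, and Prom1 on array 4. Hepatocyte markers (9 tested, 3 fell) were detected in both groups. Their summed log2 signal was 18.73 to 19.13 in the livers labelled Plin2-ASO and 19.36 to 20.02 in the controls. Albumin (Alb), Ahsg and Apob fell, with mean log2 ratios of -1.70, -2.70 and -0.61. Of the 9 means, 7 lay below 0 and 2 above, those of Hnf4a (0.78) and Tat (0.27), which the sum does not show. Macrophage markers (14 tested) summed to 15.88 to 16.72 against 17.02 to 17.88 in controls. They went in both directions, which the sum does not show: 8 fell, while Clec4f, Marco, Vsig4 and Cd163 rose, 5.15-fold to 8.46-fold. Stellate cell markers (12 tested, 7 fell) summed to 15.74 to 16.08 against 16.89 to 17.75. Endothelial markers (11 tested, 5 fell) summed to 14.21 to 14.67 against 14.82 to 15.34. Bile duct markers (7 tested, 2 fell) summed to 13.24 to 14.05 against 14.69 to 15.49, lymphocyte markers (9 tested, 1 fell) to 12.11 to 12.81 against 12.72 to 12.93, and neutrophil markers (7 tested, 1 fell) to 12.33 to 12.62 against 12.62 to 13.05. Adipocyte markers (8 tested, 1 rose) summed to 16.03 to 16.62 against 15.90 to 16.56. Pck1 had their highest mean log2 signal (15.58 against 15.77 in controls) and weighs heavily in that sum. Their median log2 ratio was 1.82 on array 3 against -0.25 to -0.06 on the others. On array 3, Cfd, Ucp1, Adipoq, Plin1 and Fabp4 read 6.45, 5.04, 4.1, 1.96 and 1.69. Cidec, Lep and Pck1 read 0.04, -0.13 and -0.78 there. Cd8a and Retn were not past the background filter. The part of these cell types in the clock values was not tested.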

How the data were processed

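Per the file headers, spots were scanned in 2 colours and extracted with Agilent Feature Extraction 9.5.1.1; the mean and background intensity of each spot were used as deposited. The deposited log10 ratio (red over green) had its background subtracted and its dyes normalized by that software. The log2 ratio in the authors' series table equalled it for all 41174 probes (largest difference 6.22e-15, so it holds no further centring); both served as alternatives with the sign turned.

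In limma 3.58.1 (R 4.3.3), normexp (offset 50) served for background correction and loess within each array for the ratios, with control spots at weight 0. Outlier spots were set to missing and no spot was saturated. A probe was kept when well above background on at least 3 of 4 arrays in 1 channel (27160 probes). Each gene used its brightest kept probe measured on at least 3 arrays (18044 genes). Mean log2 ratios were tested against 0 (lmFit, eBayes, two-sided), with Benjamini-Hochberg adjustment over all genes; SE are moderated and intervals are at 95%. Single-liver signals were scaled between arrays (Aquantile). Each array pairs 2 mice by hybridisation. Other background corrections, normalizations, filters, probe choices and variance settings were tried, as were array weights, independent channels and each array left out; a correction for probe GC was added after seeing the data. The procedure was tested on simulated data. Names and promoters are from RefSeq, GRCm38.p6.

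The members and lists were chosen with earlier results of these data known. Named were all members, the 4 genes with the smallest p in each of 5 lists, and the 5 genes nearest to the highest and lowest member; 2 of the genes this names are not reported here, though list counts and medians include them. Nr1d2, Tef, Ciart, Cyp2a5 and Tfrc were named outside this rule, after their values were seen.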

Additional observations from a re-analysis of the deposited data

How the results depend on the processing

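The number of members past the threshold, 1 in the main analysis, was 0 with no background correction, median centring, the strict background filter, outlier spots kept, or the channels as independent samples (no replicate block). It was 2 with an offset of 16, the software's ratios, the series table, the mean of all kept probes, or eBayes with trend and robust, 3 with a correction for probe GC, 5 with that correction and without array 3, and 7 with array quality weights. Leaving out 1 array gave 0 to 5 members. Of 2 auxiliary genes, 1 was left with the software's ratios, the series table, no or a strict background filter, outlier spots kept, trend and robust, or the channels as independent samples; 5 passed with array weights and with the GC correction without array 3, and 0 to 5 without 1 array. The 6 clock-controlled genes became 12 with array weights and with the GC correction without array 3, and 3 to 11 without 1 array. Over all genes 1758 passed, 7048 with array weights and 2225 with the GC correction. It was 5608 with the GC correction without array 3, and 340 to 5776 without 1 array. Both GC alternatives were chosen after seeing the data. Clock turned from -0.08 to 0.00 with median centring, 0.02 with the mean of its probes and 0.08 without array 4, and Cry2 from 0.09 to 0.00 without array 4; leaving out 1 array gave -0.29 to 0.08 for Clock and 0.00 to 0.17 for Cry2. No other member changed sign in the settings run. Npas2 passed in 9 of 17 other settings without the GC correction (adjusted p 0.00509 to 0.255), Cry1 in 7 of 16 (0.000832 to 0.274) and Nr1d1 in 2 of 17 (0.00256 to 0.319). Cry1 could not be tested under the strict filter. Low signal limits Cry1 and Npas2 (mean log2 signals of 7.60 and 7.69 in the control livers), and 4 arrays limit every value.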

Other observations

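Lists of genes that follow signals known to set the liver clock were measured in the same way. Of 12 tested genes that respond to glucocorticoids, none rose and 1 fell by limma, against 3.67% and 6.07% of all genes. At an unadjusted p under 0.05, 2 were higher and 1 lower, against 26.9% of all genes in either direction. The median log2 ratio was 0.07. The cell cycle inhibitor Cdkn1a fell by 0.97 ± 0.16 on the log2 scale (SE, n = 4; 1.96-fold lower; adjusted p = 0.0125 by limma), lower on all 4 arrays, and did not pass without array 1 or 2 (adjusted p = 0.102 and 0.0935). Tsc22d3 (GILZ), a direct target of the glucocorticoid receptor, read 0.19, 0.61, 0.76 and 1.24 (adjusted p = 0.0576 by limma) and Fkbp5, a chaperone of that receptor, 0.18, 1.1, 0.17 and 0.97 (adjusted p = 0.107). The metallothionein Mt1 read -1.62, -0.91, -1.44 and 1.12 (adjusted p = 0.326), and a second probe of it averaged 0.21.

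Of 10 tested genes of the heat shock and temperature response, 1 rose and none fell by limma, against 3.67% and 6.07% of all genes. At an unadjusted p under 0.05, 2 were higher and 1 lower, against 26.9% of all genes in either direction. The median log2 ratio was -0.19. The small heat shock protein Hspb1 rose 1.98-fold (1.05, 1.40, 0.32 and 1.16; adjusted p = 0.0244 by limma), but not without array 1, 2 or 4 (adjusted p = 0.137, 0.141 and 0.0638). The chaperone Hspa1a read 0.04, 0.91, 0.72 and 1.25 (adjusted p = 0.0675), the cold-inducible Cirbp -0.39, -0.81, 0.20 and -1.61 (adjusted p = 0.181) and the endoplasmic reticulum chaperone Hspa5 0.07, -0.03, -0.47 and -1.23 (adjusted p = 0.285).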
